A study of Homo sapiens with 6 samples.

Results

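The cytosolic translation initiation factors (eIFs) and elongation factors (eEFs) were followed in NCI-H1299 cells, a widely used line from a human non-small cell lung cancer, after 48 h with 25 µM 6p, which the series describes as a derivative of the bacterial natural product platensimycin. The gene set was every row of the expression table whose symbol begins with EIF and a digit from 1 to 6, leaving out the eIF2α kinases and symbols with a hyphen, together with EEF1A1, EEF1A2, EEF1B2, EEF1D, EEF1G and EEF2. It held 56 of 16070 listed genes. The 3 control libraries came from NCI-H1299 cells given vehicle (0.1% DMSO), although 1 label field calls them untreated, and the 3 other libraries came from the same line given 6p. All 6 libraries are thus 1 cell line at 1 dose and 1 time. The labels call the 3 samples of each group independent without saying whether they were separate cultures, so p-values measure only the spread between these samples, which may be technical.

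Translation of most cellular mRNAs starts when eIF4E binds the cap and, with the scaffold eIF4G and the helicase eIF4A, loads a small ribosomal subunit that carries eIF3, eIF1, eIF1A and the eIF2 complex with initiator tRNA. The subunit scans to a start codon, eIF5 triggers GTP hydrolysis on eIF2, eIF5B joins the large subunit, and the guanine nucleotide exchange factor eIF2B recharges eIF2. During elongation eEF1A delivers aminoacyl-tRNAs, the eEF1B complex recharges eEF1A, eEF2 moves the ribosome by a codon and eIF5A relieves stalls. Control falls mainly on eIF2, which stress kinases inhibit through its α subunit, and on eIF4E, which is held back by the 4E-binding proteins until mTOR phosphorylates them. Many mRNAs of ribosomal proteins and elongation factors begin with a run of pyrimidines (a 5′ terminal oligopyrimidine tract, or 5′ TOP), through which mTOR and LARP1 set their translation and stability.

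Transcripts of the 5 eEF1 genes of the set, of eIF1, of eIF2β and eIF2γ and of the binding protein 4E-BP1 were higher in cells given 6p. Those of the cap-binding protein eIF4E and the scaffold eIF4G1 were lower. Levels are given in FPKM, fragment counts divided by the length of the gene and by the size of the library, and differences as log2 fold changes of 6p over control on log2(FPKM + 1) with the standard error (SE) and the adjusted p of limma. Genes had to average at least 0.5 FPKM over the 6 libraries to be tested, and an adjusted p under 0.05 counts as a change. EIF4E3, a cap-binding paralogue of eIF4E, was listed at 0.0215 to 0.0714 FPKM and was the 1 gene of the set not tested. Of the 55 tested, 22 (40%) were higher, 12 (21.8%) were lower and 21 did not pass. The 22 include EIF4EBP3, whose control mean of 0.336 FPKM lay under the filter, so that it was tested only through its higher 6p values, and with a filter of 1 FPKM 21 were higher. Over all 11745 genes tested, 21.3% were higher and 25.1% were lower. The median log2 fold change was 0.09 for the factor genes and -0.04 for all tested genes. The 6p libraries all lay above the controls for 22 factor genes (26% of all tested genes) and all lay below them for 15 (31.5% of all tested genes). In bulk RNA a change in the mix of cells and a change in RNA per cell cannot be told apart.

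The scale between libraries moved these counts. Rescaled to TPM, in which the values of each library sum to the same total, the median of all tested genes shifted by -0.17 to -0.21, with 13% of genes higher and 34% lower. On that scale 15 factor genes were higher and 18 lower, and their median of -0.09 lay 0.12 above that of all genes, against 0.13 on the FPKM scale. Of the 22 higher and 12 lower genes, 12 and 6 kept their call in all 17 alternatives planned. The share over all tested genes is not given for this count. The factor genes took 3.19%, 3.26% and 3.47% of all fragments in control replicates 1 to 3 and 4.98%, 4.73% and 4.73% in 6p replicates 1 to 3. EEF1A1 by itself took 1.19%, 1.23% and 1.37% in controls and 2.68%, 2.35% and 2.35% with 6p, so this gene made up most of the difference in share.

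Library totals ran from 16775655 to 19957335 fragments. Control replicate 3 and 6p replicate 1 stood apart by gene length: each gave higher values for short genes and lower values for long ones than its group's other libraries, with Spearman's rho over 11745 genes of -0.68 and -0.52. Fold changes fell with gene length over all tested genes (rho -0.37) and over the factor genes (rho -0.41 over 55 genes), which share these libraries. With each library's trend on gene length removed, 21 factor genes were higher and 14 lower (25.5% and 27.9% of all tested genes), with a median of 0.08 and a rho with length of -0.17. Without the 2 libraries, 26 were higher and 16 lower (30.3% and 35.6% of all tested genes). That left 2 libraries in each group, the pairs that differed least (chi-square per degree of freedom 3.99 and 2.06, against 18.2 to 33.3 for other pairs). Adjusted p-values from that fit measure only the spread within these pairs. Of the 24 factor genes under 3000 nt, 13 (54.2%), among them EIF4EBP3, were higher and 3 (12.5%) lower, with a median of 0.31. Of the 31 tested at 3000 nt or more, 9 (29%) were higher and 9 (29%) lower, with a median of -0.08. The shares of all tested genes were 21.3% and 25.1%, but these cover every length, and shares split at 3000 nt are not given. In 10 groups of all tested genes by length, the median fell from 0.25 (median length 1084 nt) to -0.22 (11313 nt). Keratins KRT8 (281 to 354 FPKM) and KRT18 (545 to 833 FPKM) and vimentin (VIM, 2685 to 3060 FPKM) were high, as known of this line, while the blood marker PTPRC, the endothelial marker PECAM1 and the fibroblast marker COL3A1 did not exceed 0.0407 FPKM. COL1A1, also of fibroblasts, read 0.124 to 0.317 FPKM and the hepatocyte marker ALB at most 0.132 FPKM, and the T cell marker CD3E was not among the rows used here.

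**Figure D1:**
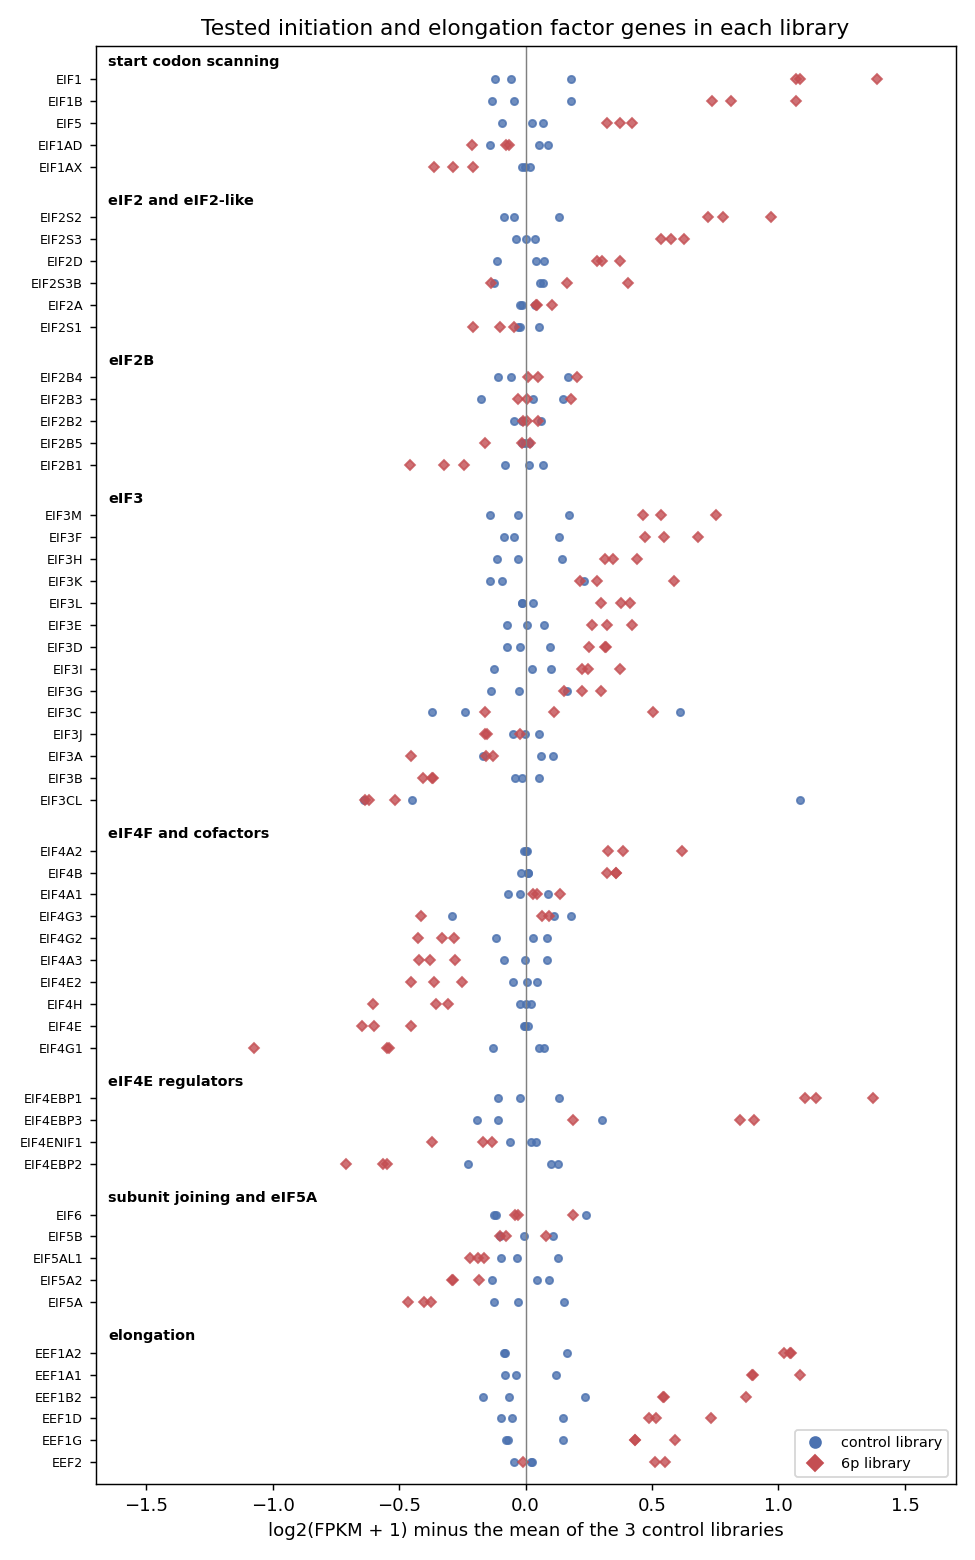
Each tested factor gene in each library, as log2(FPKM + 1) minus the mean of the 3 control libraries (blue circles, control; red diamonds, 6p), grouped by role and ordered by fold change. The eEF1 genes, EIF1, EIF2S2 and EIF4EBP1 lie to the right in 6p, EIF4E and EIF4G1 lie to the left, and EEF2 has 1 6p library among the controls.

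The annotated starts of the factor genes are shown because genes with and without a pyrimidine start differed in their fold changes. RefSeq start windows (GRCh38.p14, 250 bases before the start and 50 after it) were matched by gene ID for 46 of the 56 genes. The 10 without one were EEF1A2, EEF1D, EIF2S2, EIF3A, EIF3CL, EIF3E, EIF3G, EIF3H, EIF3L and EIF4EBP1. A start that is C followed by 4 bases of C or T, read on the gene's strand, was found in at least 1 window of 13 genes (28.3%), against 5.14% of the 27305 genes in the table and 7.55% of the 9733 tested genes with a window. Below are 15 bases before the annotated start and 15 from it, 5′ to 3′ on the gene's strand, with the unbroken run of pyrimidines at the start in capitals.
EEF1A1 (chr6:73521018-73521047, minus strand): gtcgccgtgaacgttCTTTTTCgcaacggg
EEF1B2 (chr2:206159880-206159909, plus strand): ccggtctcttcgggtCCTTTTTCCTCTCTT
EEF2 (chr19:3985449-3985478, minus strand): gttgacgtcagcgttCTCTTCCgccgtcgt
EIF2S3 (chrX:24054941-24054970, plus strand): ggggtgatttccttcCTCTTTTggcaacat
EIF2D (chr1:206612451-206612480, minus strand): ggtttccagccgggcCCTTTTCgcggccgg
EIF3D (chr22:36529152-36529181, minus strand): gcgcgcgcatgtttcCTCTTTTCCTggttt
EIF3F (chr11:7987322-7987351, plus strand): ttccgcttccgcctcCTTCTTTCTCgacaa
EIF3M (chr11:32583816-32583845, plus strand): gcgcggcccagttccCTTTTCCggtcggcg
EIF4A2 (chr3:186783562-186783591, plus strand): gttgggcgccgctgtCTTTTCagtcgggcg
EIF4B (chr12:53006441-53006470, plus strand): ttgcctcatccgggtCTTTTgcgttctctt
The run of EEF1B2 reaches the end of the bases shown, and a different annotated start of that gene has none. The stretches shown are those of the 9 genes with such a start that were higher, and of EEF2, which did not pass. The other 3 genes with such a start, EIF2A, EIF3K and EIF2S3B, a near-copy of EIF2S3, did not pass either.

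For contrast, these are the same stretches of factor genes whose windows hold no such start, 3 from the genes that were lower or did not pass and 1 from the gene with the highest fold change among them.
EIF4E (chr4:98929119-98929148, minus strand): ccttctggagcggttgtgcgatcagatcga
EIF3B (chr7:2354812-2354841, plus strand): ccccgtcgcacgcacatggctgggctgtag
EIF4A1 (chr17:7572810-7572839, plus strand): aggcgggcactccgccctagtttctaagga
EIF1 (chr17:41688870-41688899, plus strand): aggcaccgcccctctgccccagtcactgag

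Of the 13 factor genes with a pyrimidine start, 9 were higher and 4 did not pass, with fold changes from 0.06 to 0.96 and a median of 0.36. The 32 tested genes whose windows hold no such start split into 6 higher and 12 lower, with a median of -0.12. With the length trend removed the medians were 0.34 and -0.12, and on the TPM scale they were 0.18 and -0.29. As TPM, 6 of the 13 were higher, and 3 of the 32 were higher and 18 lower. Without control replicate 3 and 6p replicate 1, 12 of the 13 were higher, and 6 of the 32 were higher and 15 lower. The same feature was counted over all tested genes with a window. Of 735 tested genes with a pyrimidine start, 229 (31.2%) were higher and 140 (19%) lower, with a median of 0.05, and of 8998 without, 1780 (19.8%) were higher and 2327 (25.9%) lower, with a median of -0.05. The 11 members known from earlier work as 5′ TOP mRNAs were EEF1A1, EEF1A2, EEF1B2, EEF1D, EEF1G, EEF2, EIF3A, EIF3E, EIF3F, EIF3H and EIF4B. Of these, 9 were higher (81.8%, against 21.3% of all tested genes) and EEF2 and EIF3A did not pass. The median was 0.49, against 0.03 for the other 44 tested genes. This list holds all 6 genes of the elongation class described below, so the results for the list and the class overlap. EEF1A2, EEF1D, EIF3A, EIF3E and EIF3H of the list had no window. EEF1G is on that list although its annotated window holds no pyrimidine start. The core of the response element bound by ATF4 with C/EBP proteins, TGATGNAA on either strand, was found in a window of 1 factor gene, EIF4E3, or 2.17% of the 46, against 4.46% of all genes in the table. EIF4E3 was not tested for a change, and EIF4EBP1 had no window to search. A match describes the letters in these windows and shows no binding.

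**Figure D2:**
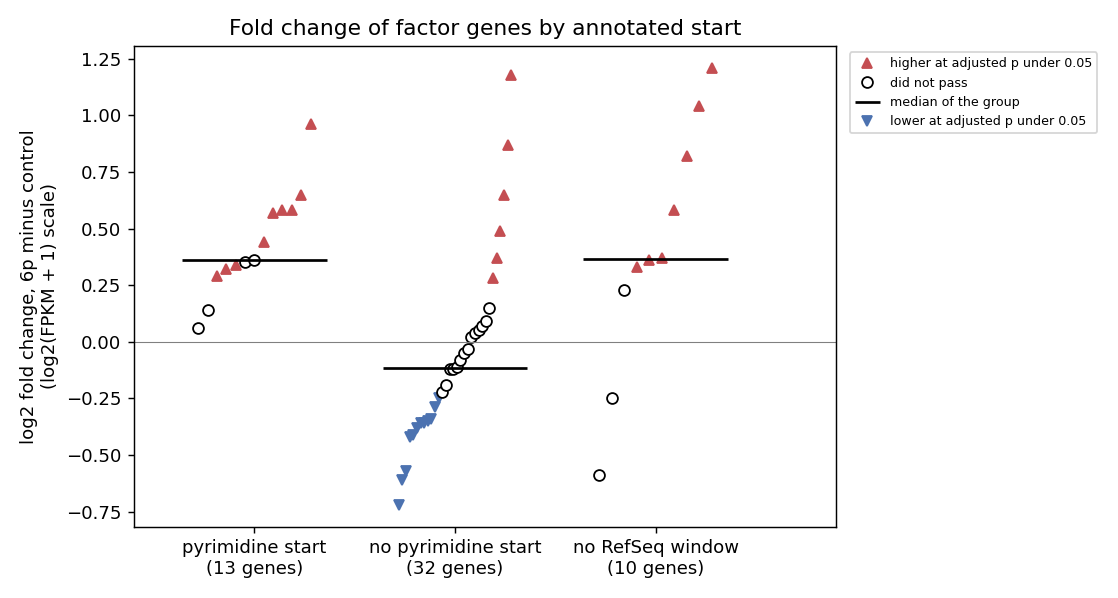
Log2 fold change of the tested factor genes, grouped by whether a RefSeq start window holds a pyrimidine start (13 genes), holds none (32 genes) or was not matched (10 genes). Red and blue triangles are genes higher and lower at adjusted p under 0.05, open circles did not pass, and bars are medians, 0.36 with a pyrimidine start and -0.12 without.

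Among the elongation factors, all 5 eEF1 genes of the set were higher (83.3% of the class, against 21.3% of all tested genes) and EEF2 did not pass. EEF1E1, which bears an eEF1 name but lies outside the set, did not pass (0.22, adjusted p = 0.186). Its fold change was -0.03 with the length trend removed. The class median was 0.62 (0.49 with the length trend removed, 0.44 as TPM). EEF1A1, which encodes the main tRNA-delivering GTPase, read 3398, 3499.7 and 3912 FPKM in control replicates 1 to 3 and 7624, 6684 and 6704 FPKM in 6p replicates 1 to 3. Every 6p library was above every control, and the mean went from 3603 ± 272 to 7004 ± 537 FPKM (SD, n = 3 in each group), a log2 fold change of 0.96 ± 0.13 (adjusted p = 0.000953). EEF1A1 (NCBI gene 1915) lies on chromosome 6, 73515750 to 73523797, in GENCODE release 29 on GRCh38, and has many processed pseudogenes with which reads could be shared. EEF1A2, its tissue-restricted paralogue best known from neurons and muscle, read 71.6, 71.3 and 84.9 FPKM in controls and 158, 157 and 155 FPKM with 6p. The groups were well apart, with a fold change of 1.04 ± 0.09 (adjusted p = 0.000106). The ratio of EEF1A2 to EEF1A1 was 0.0204 to 0.0217 in controls and 0.0207 to 0.0235 with 6p, and these ranges overlapped.

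The exchange complex that reloads eEF1A with GTP also rose. EEF1B2, a catalytic subunit, read 293, 315 and 388 FPKM in controls and 603, 483 and 481 FPKM with 6p, with no overlap and a fold change of 0.65 ± 0.14 (adjusted p = 0.00675). At 884 nt it is among the shorter members, and with the length trend removed its fold change was 0.35. EEF1D, the other exchange subunit, went from 95.4, 98.4 and 113 FPKM to 170.5, 144 and 146 FPKM, a fold change of 0.58 ± 0.10 (adjusted p = 0.00293). With the length trend removed it was 0.62. That takes as given the 3957 nt behind its FPKM, which need not be the length of its transcripts. EEF1G, the structural subunit, went from 877 ± 79.3 to 1227 ± 80.0 FPKM, a fold change of 0.49 ± 0.11 (adjusted p = 0.00949), which did not pass without control replicate 2 (adjusted p = 0.0584).

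EEF2, the translocase, behaved differently between the 6p libraries. It read 1283, 1277 and 1219 FPKM in controls and 1251, 1849 and 1797 FPKM with 6p, so that 6p replicate 1 lay among the controls and the other 6p libraries lay above them. The fold change was 0.35 ± 0.16 (adjusted p = 0.105). Without 6p replicate 1 it was 0.53 (adjusted p = 0.00713), and without that library and control replicate 3 it was 0.51 (adjusted p = 6.73e-07). The last fit kept only control replicates 1 and 2 and 6p replicates 2 and 3, the most alike within each group. Its adjusted p measures only the spread within those pairs, which were selected after the others were seen to stand apart. With the length trend removed it was 0.34 (adjusted p = 0.0546).

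Among factors that select the start codon, 3 of 5 (60%) rose and 1 (20%) fell, against 21.3% and 25.1% of all tested genes. The median was 0.37 (0.50 with the length trend removed, 0.20 as TPM). EIF1, which keeps the scanning ribosome open until a start codon is met, read 131, 137 and 162 FPKM in controls and 377, 305 and 302 FPKM with 6p. The groups were far apart, and the fold change of 1.18 ± 0.12 (adjusted p = 0.000251) was 1.09 with the length trend removed. Its paralogue EIF1B, about which less is known, read 54.1, 57.6 and 67.4 FPKM in controls and 126, 99.7 and 105 FPKM with 6p, a fold change of 0.87 ± 0.12 (adjusted p = 0.000773) that was 0.59 with the length trend removed. EIF1 (NCBI gene 10209) lies on chromosome 17, 41688885 to 41692668.

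EIF5, the GTPase-activating protein of eIF2 whose own translation is known to answer to start codon stringency, read 110.1, 107 and 98.4 FPKM in controls and 141, 136 and 132 FPKM with 6p. All 6p libraries were above the controls, with a fold change of 0.37 ± 0.08 (adjusted p = 0.0063), and as TPM 0.20 (adjusted p = 0.104). EIF1AX, which encodes the partner of eIF1 in scanning, moved the other way, from 62.7, 63.4 and 64.2 FPKM to 54.7, 49.1 and 51.8 FPKM. Its fold change was -0.29 ± 0.07 (adjusted p = 0.012), and it did not pass without 6p replicate 2 (adjusted p = 0.0526) or control replicate 2 (adjusted p = 0.0579), or with libraries recentred on their medians (-0.23, adjusted p = 0.0848). EIF1AD, a gene with an eIF1A-like domain, had a fold change of -0.12 (adjusted p = 0.293), with overlapping groups, and was lower as TPM (-0.30, adjusted p = 0.0276).

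The 3 subunits of eIF2 did not move alike. EIF2S2 (the β subunit, which contacts eIF5 and eIF2B) and EIF2S3 (the γ subunit, which binds GTP and the initiator tRNA) rose, and EIF2S1 (the α subunit, which stress kinases phosphorylate) did not pass. EIF2S2 read 125, 129 and 146 FPKM in controls and 262, 220.5 and 229.8 FPKM with 6p, a fold change of 0.82 ± 0.10 (adjusted p = 0.000542). EIF2S3 read 83.9, 88.3 and 86.3 FPKM in controls and 133, 125 and 129 FPKM with 6p, a fold change of 0.58 ± 0.07 (adjusted p = 0.000542). Neither gene's groups came near to overlapping. EIF2S1 read 76.7, 76.3 and 80.9 FPKM in controls and 75.5, 72.5 and 67.3 FPKM with 6p. Its 6p libraries were all just below the controls, with a fold change of -0.12 ± 0.07 (adjusted p = 0.22), and it was lower as TPM (adjusted p = 0.00735) and without control replicate 3 and 6p replicate 1 (-0.13, adjusted p = 0.0305).

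Within each library, the FPKM ratio of EIF2S2 to EIF2S1 was therefore 1.64, 1.69 and 1.81 in controls and 3.47, 3.04 and 3.41 with 6p. The ratio of EIF2S3 to EIF2S1 was 1.09, 1.16 and 1.07 in controls and 1.77, 1.73 and 1.91 with 6p. Such ratios do not depend on how libraries are scaled. EIF2S2 (NCBI gene 8894) lies on chromosome 20, 34088298 to 34112332, and EIF2S3 (NCBI gene 1968) on the X chromosome, 24054716 to 24077971. EIF2D, which can bring initiator tRNA to the ribosome without eIF2, rose from 8.34, 9.63 and 9.40 FPKM to 11.5, 12.1 and 11.3 FPKM. The fold change was 0.32 ± 0.08 (adjusted p = 0.0124), and as TPM 0.16 (adjusted p = 0.207). EIF2A, which has been linked to initiation at alternative codons, had a fold change of 0.06 (adjusted p = 0.441), and EIF2S3B, at 1.93 to 3.27 FPKM, one of 0.14 (adjusted p = 0.414).

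Of the 5 eIF2B genes, 1 fell (20%, near the 25.1% of all tested genes) and 4 did not pass. Their median of 0.02 was -0.05 with the length trend removed and -0.16 as TPM. EIF2B1, the α subunit that lets the complex sense phosphorylated eIF2, read 35.0, 37.4 and 39.0 FPKM in controls and 31.2, 26.7 and 29.4 FPKM with 6p. The 6p libraries were all lower, with a fold change of -0.34 ± 0.08 (adjusted p = 0.0108), or -0.28 with median recentring (adjusted p = 0.0607). EIF2B5, the catalytic subunit, read 21.6, 21.4 and 21.9 FPKM in controls and 19.3, 21.9 and 21.4 FPKM with 6p, and the groups overlapped (fold change -0.05, adjusted p = 0.575). EIF2B3, a subunit of the catalytic part, read 13.8, 16.1 and 17.5 FPKM in controls and 18.0, 15.8 and 15.4 FPKM with 6p (fold change 0.05, adjusted p = 0.695). EIF2B4, a regulatory subunit, read 27.1, 28.2 and 33.2 FPKM in controls and 34.0, 30.4 and 29.6 FPKM with 6p (fold change 0.09, adjusted p = 0.476). EIF2B2, likewise regulatory, had a fold change of 0.02 (adjusted p = 0.859).

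In eIF3, the multisubunit scaffold that binds the small ribosomal subunit, 7 of 14 genes (50%) rose and 1 (7.14%) fell. The shares of all tested genes were 21.3% and 25.1%. The median of the eIF3 genes was 0.29 (0.15 with the length trend removed, 0.11 as TPM). EIF3M read 42.1, 45.6 and 52.5 FPKM in controls and 79.0, 64.6 and 68.0 FPKM with 6p, a fold change of 0.58 ± 0.11 (adjusted p = 0.00356). EIF3F read 24.3, 25.1 and 28.5 FPKM in controls and 42.1, 36.3 and 38.4 FPKM with 6p, a fold change of 0.57 ± 0.09 (adjusted p = 0.00165). EIF3M and EIF3F are subunits of the octamer that forms the body of eIF3. Their gene lengths behind the FPKM, 5140 and 6920 nt, are among the longer of the set and need not be those of their transcripts. With the length trend removed, which takes these lengths as given, their fold changes stood at 0.68 and 0.72. EIF3L, a further octamer subunit, read 80.7, 80.8 and 83.2 FPKM in controls and 100.4, 106 and 109 FPKM with 6p. Its fold change was 0.36 ± 0.07 (adjusted p = 0.00452), and as TPM 0.19 (adjusted p = 0.0935).

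The member of eIF3 that fell was EIF3B, a core subunit with an RNA-recognition motif. It read 187, 191 and 199.7 FPKM in controls and 145, 149 and 149 FPKM with 6p, with tight groups and a fold change of -0.38 ± 0.07 (adjusted p = 0.00459). EIF3A, the largest core subunit, had a fold change of -0.25 (adjusted p = 0.107) with overlapping groups, and was lower without control replicate 3 (-0.33, adjusted p = 0.0419). EIF3G and EIF3I, which sit with EIF3B in the part that reaches toward the mRNA entry, stood at 0.23 (adjusted p = 0.108) and 0.28 (adjusted p = 0.0331). EIF3G passed without control replicate 3 (adjusted p = 0.0261), and EIF3I did not pass when any library other than control replicate 3 was left out (adjusted p from 0.059 to 0.117), with median recentring (0.34, adjusted p = 0.0514) or as TPM (0.10, adjusted p = 0.152). Rises were also called for the octamer subunits EIF3H (0.37, adjusted p = 0.0121), EIF3E (0.33, adjusted p = 0.0157) and for EIF3D (0.29, adjusted p = 0.0167), a subunit known to bind caps on some mRNAs. EIF3H did not pass without control replicate 2 (adjusted p = 0.0591). EIF3E did not pass without 6p replicate 3 or control replicates 1 or 2 (0.0538 to 0.0705), and EIF3D did not without 6p replicates 2 or 3 or control replicates 1 or 2 (0.0571 to 0.0826) or as TPM (0.12, adjusted p = 0.2). With a block for the replicate number, EIF3D, EIF3E, EIF3H and EIF3I did not pass (adjusted p from 0.0535 to 0.115).

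EIF3K, at 762 nt the shortest eIF3 gene, had a fold change of 0.36 (adjusted p = 0.0704) that was 0.03 with the length trend removed, and it passed without control replicate 3 (0.48, adjusted p = 0.0206). EIF3J, the loosely bound subunit, had a fold change of -0.11 (adjusted p = 0.246) and was lower with the length trend removed (-0.19, adjusted p = 0.0136) and as TPM (-0.29, adjusted p = 0.00498). EIF3C and EIF3CL are near-identical copies, between which the counting could split reads. EIF3C read 13.4, 24.9 and 12.1 FPKM in controls and 14.2, 23.1 and 17.4 FPKM with 6p. EIF3CL read 1.83, 2.23 and 8.35 FPKM in controls and 1.84, 1.87 and 2.08 FPKM with 6p. Control replicate 3 was high for EIF3CL where it was low for EIF3C, and the summed values, 15.2, 27.1 and 20.5 FPKM against 16.1, 25.0 and 19.4 FPKM, overlapped.

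Of the genes for eIF4F subunits, EIF4E and EIF4G1 fell, EIF4A2 rose, and EIF4A1 and EIF4G3 did not pass. The class adds the cofactors EIF4B and EIF4H and the paralogues EIF4A3, EIF4E2 and EIF4G2. Over its 10 tested genes, 6 (60%) were lower and 2 (20%) higher, against 25.1% and 21.3% of all tested genes. The median was -0.35 (-0.30 with the length trend removed, -0.53 as TPM). EIF4E, the cap-binding protein, read 20.7, 20.7 and 20.9 FPKM in controls and 14.9, 13.3 and 12.9 FPKM with 6p. The controls were almost equal and all above the 6p libraries, with a fold change of -0.57 ± 0.08 (adjusted p = 0.000774). EIF4G1, the main scaffold, read 166, 164 and 145 FPKM in controls and 74.7, 109 and 108 FPKM with 6p. It was lowest in 6p replicate 1, the groups did not overlap, and the fold change was -0.72 ± 0.15 (adjusted p = 0.0057), or -0.58 with the length trend removed and -0.54 without 6p replicate 1. EIF4E (NCBI gene 1977) lies on chromosome 4, 98871684 to 98930637, and EIF4G1 (NCBI gene 1981) on chromosome 3, 184314495 to 184335358.

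The paralogous helicases of eIF4F parted. EIF4A1, by far the more abundant, read 718, 743 and 802 FPKM in controls and 828, 768 and 777 FPKM with 6p. The groups overlapped, and the fold change of 0.07 ± 0.10 (adjusted p = 0.584) was -0.09 once the length trend was removed (adjusted p = 0.0487) and -0.11 as TPM. EIF4A2 read 118, 119 and 118 FPKM in controls and 182, 155 and 149 FPKM with 6p, all above the controls, with a fold change of 0.44 ± 0.09 (adjusted p = 0.0063) or 0.30 with the length trend removed. In each library the ratio of EIF4A2 to EIF4A1 was 0.165, 0.160 and 0.147 in controls and 0.220, 0.201 and 0.191 with 6p, while that of EIF4G1 to EIF4E was 8.05, 7.95 and 6.93 in controls and 5.02, 8.14 and 8.38 with 6p, which overlapped. EIF4A3, the helicase of the exon junction complex, which is not part of eIF4F, fell from 51.8, 55.0 and 58.4 FPKM to 45.1, 40.9 and 42.2 FPKM, a fold change of -0.36 ± 0.08 (adjusted p = 0.00672). EIF4A1 has processed pseudogenes, so its reads may be shared.

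Among the eIF4A cofactors, EIF4B rose by 0.34 ± 0.08 (adjusted p = 0.00738; as TPM 0.17, adjusted p = 0.108) and EIF4H fell by 0.42 ± 0.10 (adjusted p = 0.011). EIF4H did not pass without control replicate 2 (adjusted p = 0.0531). EIF4E2, a cap-binding protein that represses translation, had a fold change of -0.36 (adjusted p = 0.00735). EIF4G2, a scaffold that lacks the eIF4E-binding part, had one of -0.35 (adjusted p = 0.0149), which did not pass without 6p replicate 3, control replicate 1 or control replicate 2 (adjusted p from 0.0502 to 0.0723). EIF4G3, the second cap-dependent scaffold, did not pass (-0.08, adjusted p = 0.696).

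The proteins that bind eIF4E split by gene. EIF4EBP1, which encodes 4E-BP1, a known target of ATF4, read 141, 150.1 and 167 FPKM in controls and 397, 329 and 339 FPKM with 6p. All 6p libraries lay far above the controls, with a fold change of 1.21 ± 0.11 (adjusted p = 0.000132). At 827 nt its fold change was 0.89 with the length trend removed and 1.03 as TPM. EIF4EBP2, the paralogue abundant in brain, went the other way, from 19.9, 19.4 and 15.3 FPKM to 10.7, 12 and 11.9 FPKM, a fold change of -0.61 ± 0.11 (adjusted p = 0.00311) or -0.44 with the length trend removed. The ratio of EIF4EBP1 to EIF4E in each library was 6.82, 7.26 and 8.0 in controls and 26.6, 24.7 and 26.3 with 6p. ATF4 itself went from 36.7 ± 3.29 to 76.0 ± 4.16 FPKM (SD, n = 3 in each group). Whether ATF4 acted on EIF4EBP1 in these cells was not tested.

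EIF4EBP3 rested on few reads, with 2, 8 and 3 fragments in controls and 7, 18 and 16 with 6p. Its FPKM were 0.156, 0.628 and 0.226 in controls and 0.506, 1.47 and 1.38 with 6p, so that the groups overlapped. With a control mean of 0.336 FPKM it passed the filter on low values only through the 6p group, so its test is no support for a rise. The fold change was 0.65 ± 0.20 (adjusted p = 0.0312), 0.30 with the length trend removed (adjusted p = 0.425). It also did not pass with no filter on low values (adjusted p = 0.0658), as TPM (adjusted p = 0.0585), without 6p replicate 2 or 3 or without control replicate 1 or 3 (adjusted p from 0.0772 to 0.102). EIF4ENIF1, which carries eIF4E into the nucleus and into P-bodies, read 4.41, 4.34 and 4.04 FPKM in controls and 3.07, 3.69 and 3.80 FPKM with 6p, with no overlap and a fold change of -0.22 ± 0.09 (adjusted p = 0.0718), and was lower as TPM (adjusted p = 0.0479).

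**Figure D3:**
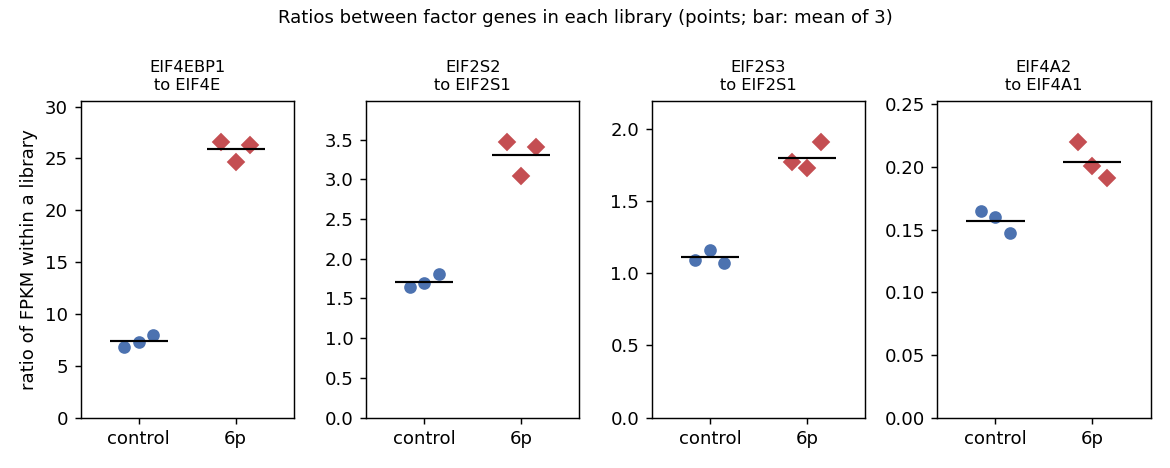
FPKM ratios between pairs of factor genes in each library (blue circles, control replicates 1 to 3; red diamonds, 6p replicates 1 to 3; bars, means of 3). The ratio of EIF4EBP1 to EIF4E averaged 7.36 in controls and 25.9 with 6p. The 4 ratios drawn are ones whose groups did not overlap, and 3 of the other ratios computed did overlap.

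Of the factors of subunit joining and the eIF5A family, 2 of 5 fell (40%, against 25.1% of all tested genes). The median was -0.19 (-0.15 with the length trend removed, -0.38 as TPM). EIF5A, which carries the hypusine residue and eases peptide bond formation at difficult sequences, read 233, 249 and 282 FPKM in controls and 196, 184 and 192 FPKM with 6p. All 6p libraries were below the controls, with a fold change of -0.41 ± 0.10 (adjusted p = 0.00951), or -0.35 with median recentring (adjusted p = 0.0559). EIF5A2, its paralogue known for amplification in carcinomas, read 6.97, 6.72 and 5.82 FPKM in controls and 5.13, 5.60 and 5.12 FPKM with 6p. Its fold change was -0.25 ± 0.09 (adjusted p = 0.0428), and it did not pass with the length trend removed (-0.14, adjusted p = 0.121), with median recentring (-0.19, adjusted p = 0.0596), with no filter on low values (adjusted p = 0.0553) or without any library other than control replicate 3 (adjusted p from 0.0608 to 0.149). The ratio of EIF5A2 to EIF5A was 0.0206 to 0.0299 in controls and 0.0262 to 0.0304 with 6p, which overlapped. EIF5AL1, a near-copy of EIF5A that may take its reads, read 3.14, 3.33 and 3.84 FPKM in controls and 2.95, 2.88 and 2.81 FPKM with 6p, with no overlap and a fold change of -0.19 (adjusted p = 0.0963), and was lower as TPM (adjusted p = 0.0217).

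EIF5B, the GTPase of subunit joining, read 45.9, 49.1 and 53.4 FPKM in controls and 52.3, 45.9 and 46.8 FPKM with 6p, with overlapping groups and a fold change of -0.03 (adjusted p = 0.767), or -0.21 as TPM (adjusted p = 0.0216). EIF6, which keeps large subunits from joining too early, had a fold change of 0.04 (adjusted p = 0.815) and was lower with the length trend removed (-0.20, adjusted p = 0.00954). EIF5A (NCBI gene 1984) lies on chromosome 17, 7306999 to 7312463.

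**Figure D4:**
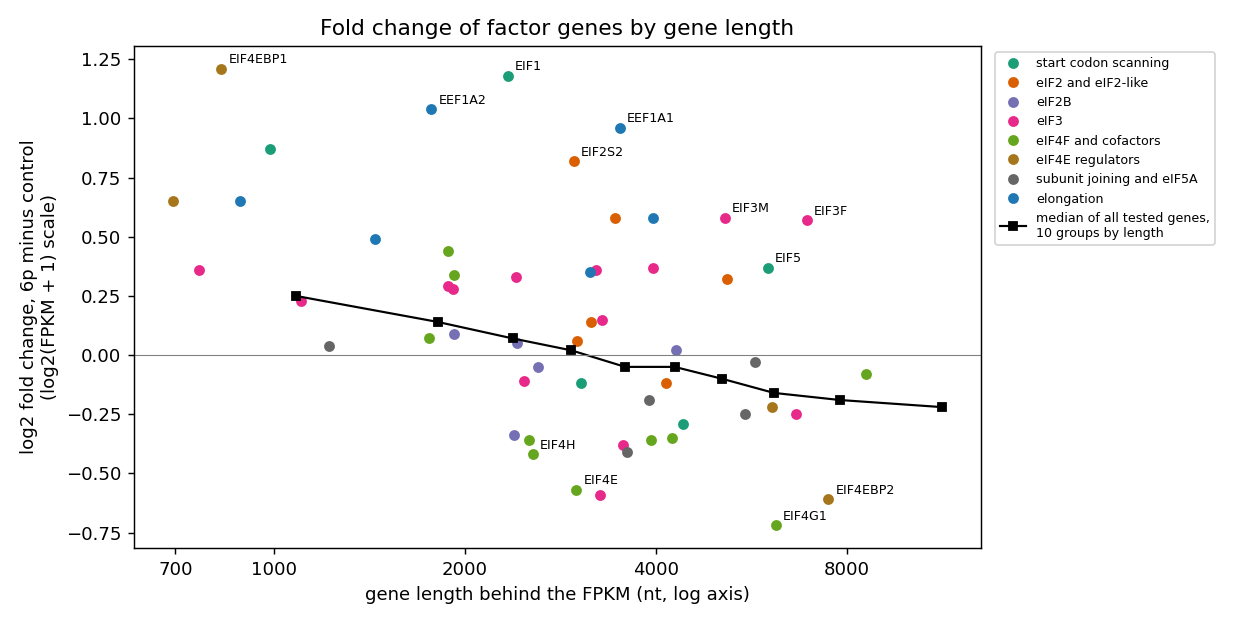
Log2 fold change of each tested factor gene against the gene length behind its FPKM (log axis, nt), coloured by role, with the median of all tested genes in 10 groups of equal size by length (black squares). The black line falls from 0.25 to -0.22, and EIF1, EEF1A1, EIF2S2, EIF3M, EIF3F and EIF5 lie well above it at their lengths while EIF4E, EIF4H and EIF4G1 lie below it.

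Genes that act on these factors were described from lists chosen for their role. Of 16 regulators of eIF2 and eIF4E, 4 (25%) rose and 6 (37.5%) fell, against 21.3% and 25.1% of all tested genes, with a median of -0.26. With the length trend removed, 18.8% were higher and 31.2% lower, against 25.5% and 27.9%, with a median of -0.13, so the shares lay near those of all genes. PPP1R15A, the stress-induced subunit that directs a phosphatase to eIF2α, rose from 17.2 ± 0.728 to 52.9 ± 1.98 FPKM (SD, n = 3 in each group), a fold change of 1.57 ± 0.07 (adjusted p = 7.36e-06). MKNK2, a kinase of eIF4E, rose from 33.4 ± 0.308 to 79.5 ± 5.86 FPKM, a fold change of 1.22 ± 0.08 (adjusted p = 2.87e-05). The other 2 that rose were PDCD4, an inhibitor of eIF4A (0.49), and RPS6KB2, an S6 kinase (0.29, or 0.14 with the length trend removed, adjusted p = 0.0957). The eIF2α kinases EIF2AK2 (-0.50), EIF2AK4 (-0.46) and EIF2AK3 (-0.27, or -0.19 with the length trend removed, adjusted p = 0.0837) fell, while EIF2AK1 did not pass (-0.27, adjusted p = 0.0803). The mTOR complex genes MTOR (-0.60, adjusted p = 0.044) and RPTOR (-0.54, adjusted p = 0.048) fell, both lowest in 6p replicate 1, at 8.64 and 4.95 FPKM. EEF2K, the kinase that inhibits eEF2, fell too (-0.46). Of these 6 that fell, only EEF2K kept its call in every alternative planned.

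Of 9 other initiation cofactors tested, 3 fell (33.3%, against 25.1% of all tested genes) and 0 rose. With the length trend removed, 22.2% were higher and 44.4% lower, against 25.5% and 27.9% of all tested genes. The genes that fell were DDX3X (-0.60) and DHX29 (-0.38), helicases that help with structured leaders, and ABCE1 (-0.44), which splits ribosomes for reuse. PABPC1, the main poly(A)-binding protein, had a fold change of 0.24 (adjusted p = 0.0892) and was higher with the length trend removed. Among 15 factors of hypusine and diphthamide synthesis, other elongation factors and release factors, 4 rose and 4 fell (26.7% each, near the shares of all tested genes), with a median of 0.14. Of the enzymes that build hypusine on eIF5A, DHPS had a fold change of 0.33, which was 0.16 with the length trend removed (adjusted p = 0.0563), and DOHH one of -0.31. Of the enzymes that build diphthamide on eEF2, DPH5 (0.45) and DPH3 (0.31) rose and DPH1 (-0.49) and DPH2 (-0.37) fell. PELO, a ribosome rescue factor, rose by 0.43, and GSPT1, a release factor, had a fold change of -0.26, which was -0.08 with the length trend removed (adjusted p = 0.344). Among 10 mitochondrial translation factors 4 (40%) rose and 2 (20%) fell, against 21.3% and 25.1% of all tested genes, with a median of 0.09. As TPM, 10% were higher and 20% lower, against 13% and 34% of all tested genes. The mitochondrial initiation factors MTIF3 (0.45) and MTIF2 (0.36), GFM2 (0.34), a ribosome recycling factor, and MTRFR (0.30), a rescue factor, rose, while MTRF1L (-0.46), a release factor, and GFM1 (-0.29), the elongation factor, fell. Of the 27 genes called in these 4 lists, 12 kept their call in all 17 alternatives planned. These were PPP1R15A, MKNK2, PDCD4, EEF2K, DDX3X, DHX29, ABCE1, DPH2, DPH5, PELO, MTIF3 and MTRF1L.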

How the data were processed

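The authors deposited FPKM for 16070 genes in 3 control and 3 6p libraries, made with a stranded mRNA kit per the labels' protocols. Trimmomatic, HISAT2, HTSeq, Cufflinks and the build GRCh38 are named in the submitters' processing notes. The role and version of each were not given in the sources used here, and 0 columns of per-sample values went unused. FPKM assumes that libraries share the same dependence on gene length, and here they did not.

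Each gene's length and whole fragments, and each library's total, were recovered from the FPKM steps in Python 3.11.15. At a tolerance of 0.001, 100% of the 11745 tested genes came out whole in every library. Replicates of a group differed by more than sampling noise (chi-square per degree of freedom 2.06 to 33.3). Genes averaging at least 0.5 FPKM were fitted as log2(FPKM + 1) in limma 3.58.1 under R 4.3.3, using lmFit and a robust eBayes with a trend. The tests were two-sided, and p-values were adjusted by Benjamini-Hochberg over all 11745 genes, with a threshold of 0.05. Fold changes on this scale understate the change of low genes. The script was tested on simulated data.

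Members and gene lists were chosen with earlier results of these data known. Values in all libraries were given for up to 4 members of each role class with the smallest adjusted p and, whatever their result, for 13 members: EIF4EBP1, EIF4E, EIF4A1, EIF4A2, EIF4G1, EIF2S1, EIF2S2, EIF2B5, EIF5A, EIF5A2, EEF1A1, EEF1A2 and EEF2. Other members were named with their fold change. EEF1G, EIF3C and EIF3CL were named outside this rule after their values were seen, as were the genes of the regulator lists. ATF4 was added outside the planned lists. Alternatives were a pseudocount of 0.1, filters on mean FPKM of 1, 5 or none, TPM, recentring on library medians, plain eBayes, a block for the replicate number, subtraction of a loess curve (span 0.5) fitted to log2 length, leaving out each library, leaving out control replicate 3 and 6p replicate 1 together, and limma voom on the recovered fragments, which called 2459 genes higher and 2940 lower. Start windows are from RefSeq (GRCh38.p14), and gene positions from GENCODE release 29. Protein sequences were not used here, and 1 marker gene is not reported here.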

Additional observations from a re-analysis of the deposited data

How the results depend on the processing

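The counts of higher and lower factor genes kept within 1.5 times under all 18 alternatives, at 15 to 26 higher and 8 to 18 lower. The extremes were 15 and 18 as TPM, 21 and 8 with median recentring and 26 and 16 without control replicate 3 and 6p replicate 1. The matching shares of all tested genes were 13% and 34%, 24.5% and 21.3%, and 30.3% and 35.6%. Their median of 0.09 moved to 0.15 with median recentring and reversed to -0.09 as TPM, and ran from 0.03 to 0.13 with 1 library left out. Limma voom on the recovered fragments called 22 higher and 12 lower. With the length trend removed and control replicate 3 and 6p replicate 1 left out, an alternative chosen after seeing the data, 24 were higher and 15 lower. The shares of all tested genes in that fit were 30.8% and 34.5%.

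Of 608 values of the 34 genes named with values in all libraries, 555 kept direction and call, 25 lost the call, 9 gained one and 19 reversed, and 17 genes were the same throughout. The reversals were of 5 genes that did not pass on the FPKM scale with all libraries, of which EIF4A1 passed as lower with the length trend removed (adjusted p = 0.0487, and 0.00538 with the 2 libraries also left out). EIF2B3, at 0.05, became -0.03 after removal of the length trend, -0.12 as TPM and -0.04 with the trend removed and the 2 libraries left out, and ran from -0.04 to 0.13 with 1 library left out. EIF2B4 went from 0.09 to -0.05, -0.09 and -0.04 under the same 3 settings, and EIF4A1 from 0.07 to -0.09, -0.11 and -0.09. EIF2B5 went from -0.05 to 0.01 with median recentring and 0.01 without the 2 libraries together, and ran from -0.09 to 0.00 with 1 left out. EIF5B, at -0.03, became 0.09 after removal of the length trend, 0.03 with median recentring and 0.08 with the trend removed and the 2 libraries left out, and ran from -0.09 to 0.02 with 1 left out. The cause was not tested.

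The labels number the replicates of both groups 1 to 3. Deviations of same-numbered libraries from their group means correlated at -0.569, 0.326 and -0.417. Those of control replicate 3 and 6p replicate 1, which stood apart by gene length, correlated at 0.634. With that length pattern in the deviations, these values cannot show whether the numbers pair the samples. With the replicate block, 16 factor genes were higher and 9 lower, against 22 and 12 without it. Over all 11745 tested genes the block gave 1774 higher and 1920 lower, against 2506 and 2951 without it, so calls fell in general. The higher genes EEF1G, EIF3D, EIF3E, EIF3H, EIF3I and EIF4B did not pass with the block (adjusted p from 0.0535 to 0.115). Nor did the lower genes EIF1AX, EIF4G2 and EIF5A2 (adjusted p from 0.0584 to 0.095). Depth limited EIF4EBP3, at 2 to 18 fragments, and EIF4E3, which was not tested.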
